A study of Mus musculus with 10 samples.

Results

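Gpr151 and 5 other orphan G protein-coupled receptors (Gpr139, Gpr158, Gpr3, Gpr26 and Gpr85) were followed across pull-downs of translated RNA from the mouse medial habenula. They were chosen by name, as 6 of the 32531 gene rows of the count files, and all 6 passed the filter for low counts. The libraries came from adult BAC transgenic mice of the Chat-TRAP line DW167, in which regulatory sequence of the choline acetyltransferase gene drives an EGFP-tagged copy of the ribosomal protein Rpl10a. Antibodies to EGFP pulled down the tagged polysomes (translating ribosome affinity purification, TRAP) from the left and the right medial habenula, which were dissected and homogenised apart, and the RNA they held was sequenced. The left side has 5 libraries and the right side 5. Both groups carry the transgene, neither has a named treatment, and no unpurified tissue was used here. The labels do not tie libraries to animals, so errors and p-values measure the spread between these libraries, which may be technical.

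An orphan receptor is one whose natural ligand is unknown or was unknown when it was named. Gpr151 sits in the axons and presynaptic endings of habenular neurons, which run to the interpeduncular nucleus, and it signals through inhibitory G proteins of the Gαo class. Gpr139 responds to the aromatic amino acids tryptophan and phenylalanine and can oppose signalling of the μ-opioid receptor. Gpr158 is a class C receptor that holds the complex of RGS7 and Gβ5 at the membrane and has been described as a metabotropic glycine receptor. Gpr3 and Gpr26 raise cyclic AMP without an added ligand, and Gpr85 belongs to a small family of receptors that are highly conserved and expressed in brain.

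The promoter stretches of Gpr158, Gpr3 and Gpr85 are shown because these 3 of the 6 receptors were matched in the RefSeq promoter table on GRCm38.p6. The stretches end just before the first base of the gene in GENCODE M21. Capitals mark every match, on either strand, to the GC box (GGGCGG) or the CCAAT box (CCAAT). The stretches are chr2:21367317-21367541 (plus strand) for Gpr158, chr4:133212537-133212786 (minus strand) for Gpr3 and chr6:13839943-13840192 (minus strand) for Gpr85, each written 5′ to 3′ in the direction of the gene.
Gpr158: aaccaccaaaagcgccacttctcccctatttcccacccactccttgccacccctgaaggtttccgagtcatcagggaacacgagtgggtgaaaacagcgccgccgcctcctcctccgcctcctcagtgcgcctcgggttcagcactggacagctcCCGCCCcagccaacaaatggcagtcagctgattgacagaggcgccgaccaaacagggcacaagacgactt
Gpr3: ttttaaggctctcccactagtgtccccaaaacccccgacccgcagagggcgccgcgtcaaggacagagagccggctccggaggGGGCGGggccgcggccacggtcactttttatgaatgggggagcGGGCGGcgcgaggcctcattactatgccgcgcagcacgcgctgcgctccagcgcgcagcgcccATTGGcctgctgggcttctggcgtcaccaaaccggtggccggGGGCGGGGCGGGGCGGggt
Gpr85: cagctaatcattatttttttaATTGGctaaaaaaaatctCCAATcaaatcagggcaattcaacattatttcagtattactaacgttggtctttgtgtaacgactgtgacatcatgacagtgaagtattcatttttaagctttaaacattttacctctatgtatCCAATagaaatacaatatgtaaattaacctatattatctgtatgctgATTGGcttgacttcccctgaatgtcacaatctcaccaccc

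The 3 stretches differ in composition. That of Gpr3 is 70.8% G and C with 29 CpG dinucleotides and 5 GC boxes, of which 3 overlap within the last bases before the gene. That of Gpr158, 225 bases long, is 60.4% G and C with 13 CpG dinucleotides and 1 GC box. That of Gpr85 is 32.0% G and C with 2 CpG dinucleotides, holds 4 CCAAT boxes and has no GC box, and only 2.38% of all promoters in the table had less G and C. Of 32851 promoters in the table, 32.7% held a GC box and 33.8% a CCAAT box in the 250 bases before the gene. The letters TATAAA (12.4% of promoters), TGACGTCA (1.55%), CACGTG (6.02%) and ATGCAAAT (1.60%) were also searched on both strands and did not occur in these 3 stretches. These are matches of letters and say nothing of binding.

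Total gene counts were 42488448 to 67942836 reads per library. Levels are given as CPM, counts per 1000000 reads in genes, with library sizes scaled by TMM factors (trimmed mean of M values). The labelled tissue was checked against markers: all 11 markers of cholinergic medial habenula neurons were present in every library. The summed level of these markers was 6048 to 8745 CPM on the left and 4872 to 8951 CPM on the right. Nwd2, at 1698 to 2987 CPM, and Chrna3, the α3 nicotinic subunit, at 630 to 1262 CPM, were the most abundant of them, and Chat itself stood at 86.0 to 196 CPM. RNA of other cells differed widely between libraries of the same side. The 12 astrocyte markers summed to 126 to 2061 CPM in left libraries and 124 to 1947 CPM in right libraries, led by Slc1a2 and Aldoc. The 6 thalamic markers, led by Rora and Plekhg1, summed to 272 to 1666 CPM and 256 to 1606 CPM. Replicates 1 and 5 of both sides had the lowest sums of both lists. Between these replicates of one side, counts differed by less than in any other pair of the same side, but by more than sampling noise (chi-square per gene 1.13 on the right and 1.45 on the left for genes with 20 to 100 reads), so they were counted as separate libraries, as labelled. Whether they come from related material was not tested, since repeat preparations of 1 sample can also differ by more than sampling noise.

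Gpr151 is a gene of 1 exon on chromosome 18 of GRCm38 (42577881 to 42579652, minus strand). Its level stood at 562, 382, 259.9, 273 and 550.2 CPM in left replicates 1 to 5. In right replicates 1 to 5 it stood at 546, 368, 209, 219 and 543 CPM. The highest values were those of replicates 1 and 5 on both sides, the lowest was right replicate 3, and the sides overlapped over nearly their whole range. Between 8806 and 37182 reads stood behind each value.

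Gpr139 spans 119140747 to 119184603 on the minus strand of chromosome 7 in 2 exons. It stood at 49.4, 46.7, 32.8, 36.3 and 46.9 CPM in left replicates 1 to 5 and at 50.3, 45.7, 27.4, 27.3 and 51.4 CPM in the right ones. Replicates 3 and 4 were low on both sides, while replicate 2 was close to replicates 1 and 5. In that it differed from Gpr151, whose replicate 2 lay well below replicates 1 and 5, and the ratio of Gpr151 to Gpr139 was 10.6 to 11.7 in replicates 1 and 5 and 7.52 to 8.18 in the other 6 libraries.

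Gpr158, the class C receptor, ran the other way. It occupies 21367542 to 21830547 on the plus strand of chromosome 2, and its longest annotated transcript has 11 exons. Its level was 45.7, 122, 151, 237 and 42.6 CPM in left replicates 1 to 5. On the right it was 48.7, 89.5, 214, 191 and 48.3 CPM. Replicates 1 and 5 held the 4 lowest values of the 10, and the range of 5.57-fold was the widest of the 6 receptors.

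Gpr26 (chromosome 7, 131966460 to 131994405, plus strand, 3 exons) and Gpr85 (chromosome 6, 13834458 to 13839942, minus strand) followed Gpr151 with a smaller range. In left replicates 1 to 5 Gpr26 read 57.8, 47.4, 42.3, 37.2 and 58.3 CPM, and in right replicates 63.0, 52.5, 33.5, 34.5 and 60.4 CPM. For Gpr85 the left values were 37.0, 28.7, 23.3, 22.1 and 33.4 CPM, and the right values 34.9, 32.3, 19.9, 24.999 and 34.3 CPM. Both were highest in replicates 1 and 5, for Gpr85 only with TMM scaling, and lowest in replicates 3 and 4, with ranges of 1.88-fold and 1.86-fold over the 10 libraries.

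Gpr3 (chromosome 4, 133209340 to 133212536, minus strand) had the fewest reads of the 6, with 721 to 2029 per library. It stood at 24.9, 31.7, 22.8, 17.0 and 27.4 CPM in left replicates 1 to 5 and at 28.8, 24.6, 18.7, 17.9 and 29.5 CPM in the right ones. Its highest value was in left replicate 2, so replicates 1 and 5 did not stand apart for this gene.

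**Figure D1:**
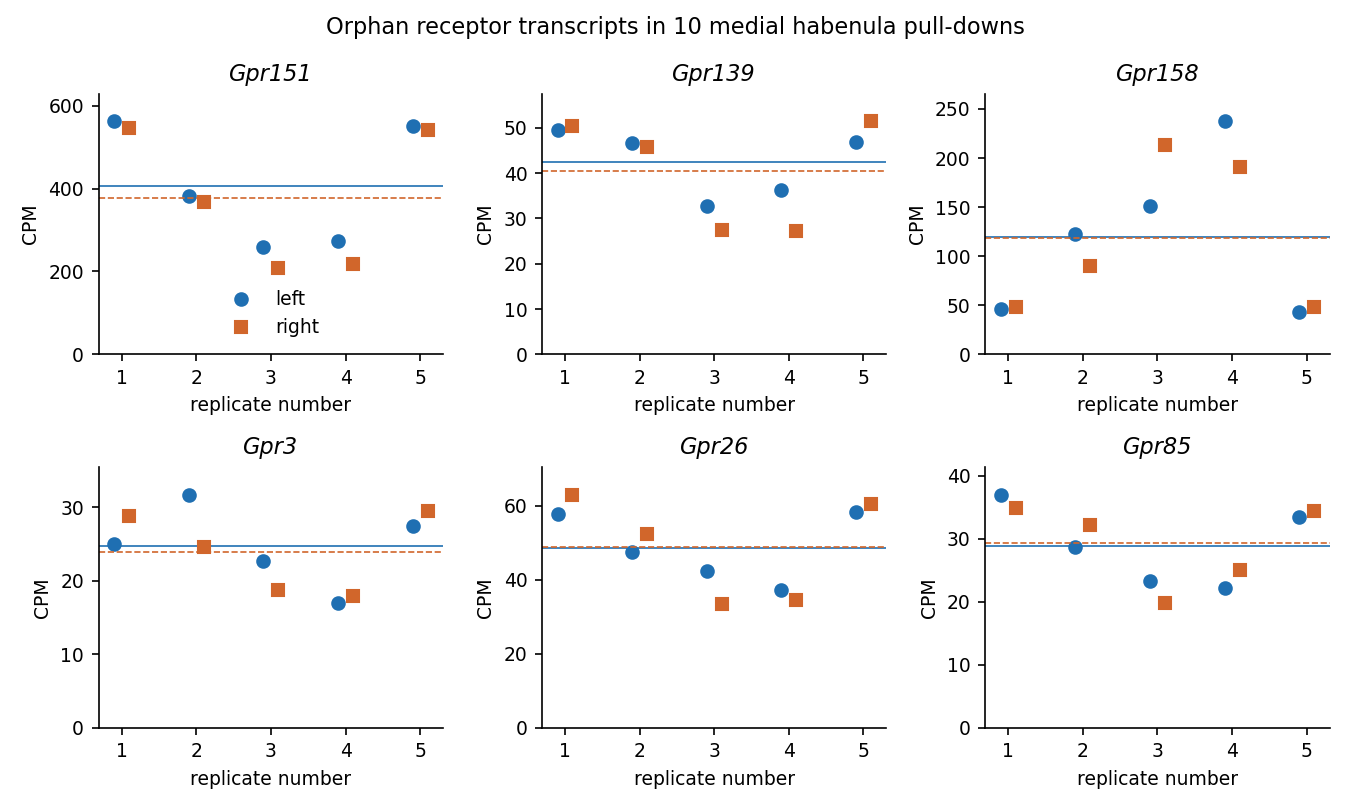
Level of each receptor (CPM, y axis from 0) by replicate number (x axis), with 1 point per library, left as circles and right as squares, and horizontal lines at the mean of the left (solid) and the right (dashed). Gpr151 spans 543 to 562 CPM for replicates 1 and 5, with 209 to 382 CPM elsewhere, Gpr158 has the opposite shape, and the lines of both sides lie close together in every panel.

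Read as a pattern over libraries, Gpr151, Gpr139, Gpr26 and Gpr85 had all 4 libraries of replicates 1 and 5 above the other 6, Gpr158 had them below, and Gpr3 overlapped. Over all 16250 tested genes 23.6% had these libraries above and 24.8% had them below, so either pattern is common here. With CPM not scaled by TMM factors the 4 receptors become 2, Gpr151 and Gpr26, against 22.9% of tested genes, since replicate 2 then reaches into the range of replicates 1 and 5 for Gpr139 and Gpr85. Among the 11 cholinergic medial habenula markers 7 had them above and 0 below, and all 6 thalamic, all 12 astrocyte and all 10 oligodendrocyte markers had them below. In pulled-down tissue, fewer cells of a type and less RNA per cell cannot be told apart. The part of the other cell types in the receptors' levels was not tested.

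Levels of different genes compare only per length, so CPM was divided by the kilobases of annotated exon (GENCODE M21). On that scale Gpr151 stood at 221 ± 83.3 CPM per kb (SD, n = 10 libraries), 82nd of 14410 tested genes with a matched length. Gpr158 followed at 14.6 ± 9.23, Gpr3 at 8.90 ± 1.89, Gpr139 at 8.55 ± 1.96, Gpr85 at 7.12 ± 1.496 and Gpr26 at 4.21 ± 0.97 CPM per kb. Gpr151 was above Gpr158 in 10 of 10 libraries, by 4.52-fold in the closest and 59.5-fold in the widest case. With GENCODE lengths Gpr85 was above Gpr26 in 10 of 10 libraries. The neighbours in between could not be ordered beyond their spread: Gpr158 was above Gpr3 in 6 of 10 libraries, Gpr3 above Gpr139 in 7 and Gpr139 above Gpr85 in 9. The place of Gpr26, and so its order among the 6 receptors, depends on its gene model. That model ends at 131994405 in GENCODE and at 131985633 in RefSeq. Levels with the RefSeq end were not computed. For Gpr158 and Gpr3, 601 and 204 exonic bases are shared with a gene of the other strand (Gm13327 and Cd164l2), and the sources used here do not state whether the counting used strand.

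Among 74 orphan receptors and relatives with a matched length, Gpr151 was the highest per kb. Gpr158, Gpr3, Gpr139, Gpr85 and Gpr26 came in places 4, 5, 8, 12 and 17. The place of Gpr26 rests on its GENCODE gene model and was not computed with the RefSeq end. The 5 highest of the remaining orphan receptor list were Gpr4, a proton-sensing receptor, at 19.0 ± 2.82 CPM per kb, Gpr75 at 16.0 ± 2.77, Gpr180 at 8.56 ± 1.36, Gpr19 at 8.34 ± 1.296 and Lgr4, a receptor for R-spondins, at 7.83 ± 0.71. Gpr151 was thus more than an order of magnitude above each of them in its mean.

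**Figure D2:**
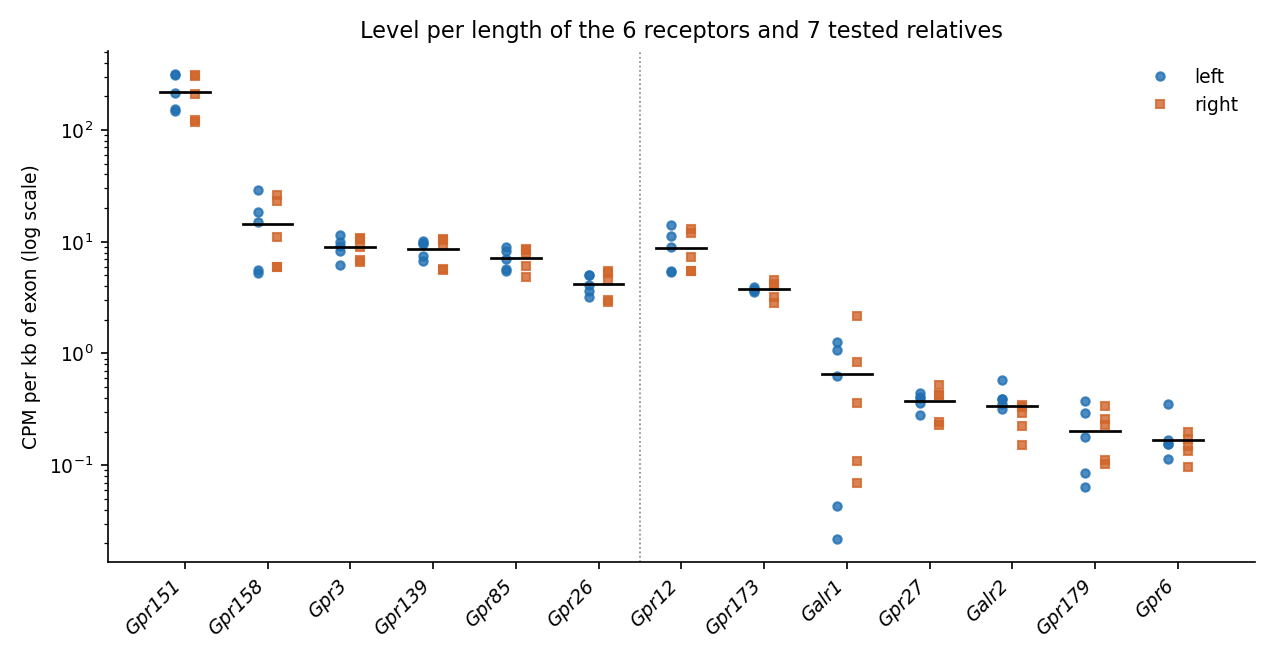
CPM per kilobase of exon (log scale, y axis) of the 6 receptors, left of the dotted line, and of 7 tested relatives (x axis), with 1 point per library and a bar at the mean of 10 libraries. Gpr151 stands at 118 to 317 CPM per kb and no library of any other gene shown reaches it.

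The comparison of the sides asked whether the receptors differ between the left and the right medial habenula. None of the 6 passed the threshold. In the fit across all genes (edgeR quasi-likelihood test, Benjamini-Hochberg adjusted p under 0.05) 0 of 16250 genes were called (0%), and 90 genes had an unadjusted p under 0.05. DESeq2 and limma-voom also called 0 genes (273 of 23868 and 2409 of 16250 with an unadjusted p under 0.05). These counts lie far apart, and how well the p-values are calibrated here was not tested. That 0 genes were called does not show that the sides are equal. Mean levels of Gpr151 were 406 ± 146 CPM (left) and 377 ± 165 CPM (right; SD, n = 5 per side). Its log2 fold change, left minus right, was 0.11 (95% interval -0.66 to 0.87, edgeR adjusted p = 0.99999). Gpr139 averaged 42.4 ± 7.37 and 40.4 ± 12.1 CPM, a log2 fold change of 0.07 (-0.42 to 0.56). Both were a little higher on the left in the mean, by less than the spread between libraries.

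Gpr158 averaged 119.8 ± 81.0 and 118 ± 78.9 CPM (left, then right; log2 fold change 0.02, -1.28 to 1.32), the widest interval of the 6. Gpr3 averaged 24.8 ± 5.45 and 23.9 ± 5.44 CPM (0.05, -0.39 to 0.50). Gpr26 averaged 48.6 ± 9.37 and 48.8 ± 14.0 CPM (-0.0052, -0.48 to 0.47), and Gpr85 28.9 ± 6.38 and 29.3 ± 6.57 CPM (-0.02, -0.46 to 0.42). In this fit, which has no term for the replicate number, the interval of Gpr158 holds a 2-fold difference in either direction, while for the other 5 it lies within -1 and 1. With the replicate number as a block the interval of Gpr158 narrows to -0.29 to 0.30, around a log2 fold change of 0.00013, and with the glial score as a covariate to -0.19 to 0.23. The median log2 fold change of the 6 was 0.04, against -0.0097 over all tested genes. With limma-voom and sample weights the log2 fold change of Gpr151 turned to -0.39 (adjusted p = 0.337), and that of Gpr158 kept its sign and grew to 0.87 (adjusted p = 0.282).

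Libraries with the same replicate number deviated together, though some were closer to a library of another number. The sides were also set side by side by number. Gpr151 was higher on the left in 5 of 5 pairs, with log2 differences of 0.04, 0.05, 0.31, 0.32 and 0.02 for numbers 1 to 5. Over all tested genes the left was higher in 5 of 5 pairs for 2.13% and the right for 2.65%. This count was looked at after the values were seen. With the replicate number as a block, the log2 fold change of Gpr151 was 0.15 with an unadjusted p of 0.0749 and an adjusted p of 0.9999 in edgeR, so it was not called. Gpr139 was higher on the left in 3 of 5 pairs, from -0.13 to 0.41, and Gpr158, Gpr3, Gpr26 and Gpr85 in 2 of 5 each (Gpr3 in 3 of 5 without TMM factors). For replicates 1 and 5 alone, where 12.8% of tested genes were called, 0 of the 6 receptors were called, and the smallest adjusted p among them was 0.135, for Gpr3.

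**Figure D3:**
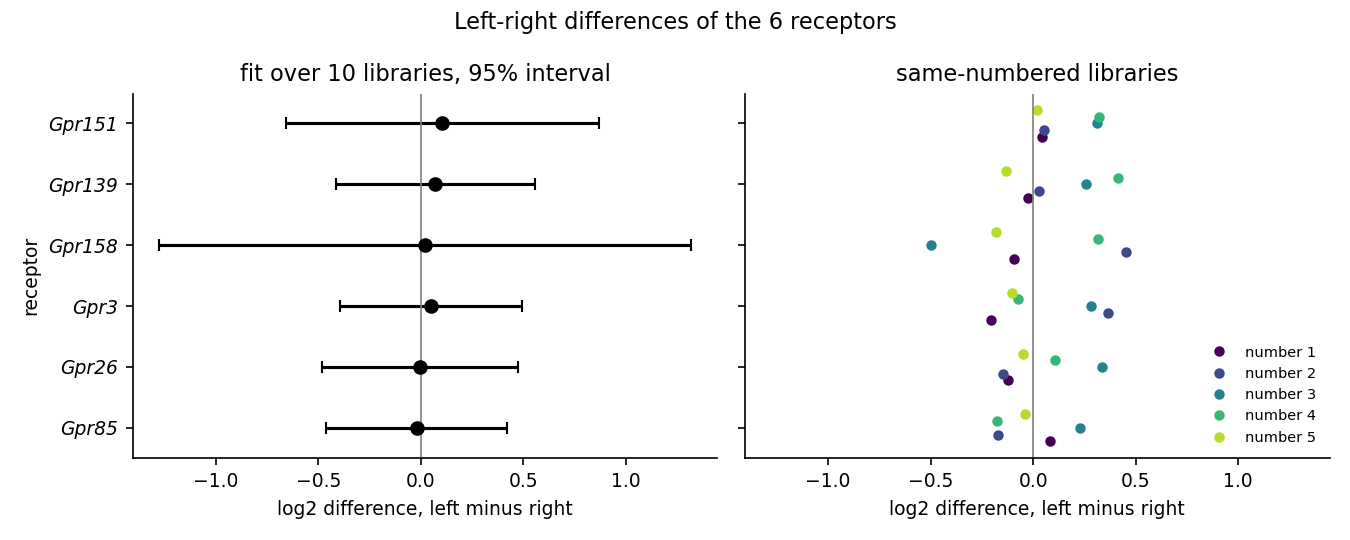
Left-right differences of the 6 receptors on the log2 scale (x axis, positive where the left is higher), from the fit over 10 libraries with 95% intervals (left panel) and for each pair of same-numbered libraries (right panel, 1 point per pair, shaded by number). All intervals cross 0, and the 5 points of Gpr151 all lie above 0, between 0.02 and 0.32.

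The nearest relatives of the receptors gave a view of which family members were present. Of 11 relatives 10 had a row in the files and 8 were tested. None was called between the sides, the mean was higher left for 4 and higher right for 4, and their median log2 fold change was 0.01. The relatives of Gpr151, the galanin receptors, were scarce. Galr1 stood at 0.0657 to 6.41 CPM over the 10 libraries and Galr2 at 0.37 to 1.44 CPM, while Galr3 had at most 12 reads in a library and was not tested. Galr1 was below all other libraries in replicates 1 and 5, the reverse of Gpr151. Gpr142, the relative of Gpr139, was not tested either, and Gpr78, the relative of Gpr26, had no row.

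Gpr12, which like Gpr3 raises cyclic AMP on its own, moved against Gpr3 between libraries. Gpr12 stood at 13.4, 22.4, 28.1, 35.8 and 13.7 CPM in left replicates 1 to 5 and at 13.8, 18.4, 30.2, 32.9 and 13.6 CPM in the right ones. All 4 values of replicates 1 and 5 were below the other 6. The ratio of Gpr3 to Gpr12 was therefore 1.86 to 2.16 in replicates 1 and 5 and 0.48 to 1.42 elsewhere. Gpr6, the remaining member of that trio, stood at only 0.17 to 0.62 CPM.

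Of the conserved family of Gpr85, Gpr173 was present at 14.6 to 23.4 CPM (left 19.1 ± 0.65, right 19.3 ± 3.67), with replicates 1 and 5 inside the range of the others, and Gpr27 at 0.55 to 1.25 CPM. Gpr179, a class C relative of Gpr158, stood at 0.61 to 3.55 CPM. Per kb, Gpr151 was above Galr1 and Galr2 in the mean, Gpr158 above Gpr179 and Gpr85 above Gpr173 and Gpr27, and Gpr3, at 8.90 ± 1.89 CPM per kb, was about level with Gpr12 at 8.85 ± 3.53.

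Proteins through which the receptors act were measured as a second list. All 23 were tested, 0 were called between the sides, 12 had a higher mean on the left, and the median log2 fold change was 0.0095. Rgs7, the RGS protein that Gpr158 binds, stood at 42.1, 80.3, 94.0, 119 and 39.0 CPM in left replicates 1 to 5. In the right ones it read 45.8, 61.9, 115, 99.6 and 47.1 CPM. Like Gpr158 it was lowest in replicates 1 and 5 of both sides and highest in left replicate 4, then right replicate 3. Rgs7bp, the membrane anchor of Rgs7, ranged over 72.5 to 78.5 CPM in replicates 1 and 5, against 133 to 297 CPM for the other 6 libraries. Gnb5, the Gβ5 subunit of the same complex, had the reverse order, with 107 to 117 CPM in replicates 1 and 5 and 71.4 to 102 CPM elsewhere. Of the 23 partners, 7 (30.4%) had replicates 1 and 5 below all other libraries and 3 (13.0%) had them above. Over all tested genes these shares were 24.8% and 23.6%, so neither pattern is particular to this complex.

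Gnao1, the Gαo subunit, was abundant and steady at 2450 to 3108 CPM, a range of 1.27-fold over libraries in which Gpr151 ranged 2.69-fold. Oprm1, the μ-opioid receptor, stood at 98.7 to 131 CPM, a range of 1.33-fold against 1.88-fold for Gpr139, and the ratio of Gpr139 to Oprm1 ran from 0.26 to 0.47. Gnas and Gnal, α subunits that stimulate adenylyl cyclase, stood at 2048 to 2672 CPM and at 758 to 1009 CPM. Neither had replicates 1 and 5 apart from the others.

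Ratios within a library put numbers on this. They are ratios of CPM and show how far a pair of transcripts kept its proportion, not which is more abundant per length. Gpr158 relative to Chat ran from 0.23 in left replicate 5 to 2.74 in left replicate 4, a 12.02-fold range. Relative to Rora, an orphan nuclear receptor and thalamic marker, it stayed between 0.24 and 0.35, a 1.47-fold range. Among the 6 thalamic markers Rora had the range nearest to that of Gpr158 (5.95-fold and 5.57-fold). The others ranged 26.5-fold (Plekhg1), 22.9-fold (Prkcd), 10.4-fold (Tnnt1), 1.53-fold (Calb1) and 1.52-fold (Lef1). The steady ratio to Rora therefore does not stand for the thalamic list. Gpr158 was also set against Rgs7bp and Rgs7. Relative to Rgs7bp it stayed between 0.58 and 0.97, and relative to Rgs7 between 1.03 and 1.996. Its ratio to Gnb5, which had the reverse order over the libraries, was not computed.

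Gpr151 relative to Chat ran from 2.43 to 3.90, a 1.61-fold range, and relative to Tac2, which encodes neurokinin B, from 0.44 to 0.75. Gpr26 and Gpr85 relative to Chat had ranges of 1.57-fold and 1.67-fold, Gpr139 of 1.90-fold and Gpr3 of 2.21-fold. For these 4 the highest ratio to Chat was in left replicate 2, as it was for Gpr151. Of the 3 pairs of receptors compared, Gpr26 and Gpr85 kept the closest proportion, 1.38 to 1.82.

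**Figure D4:**
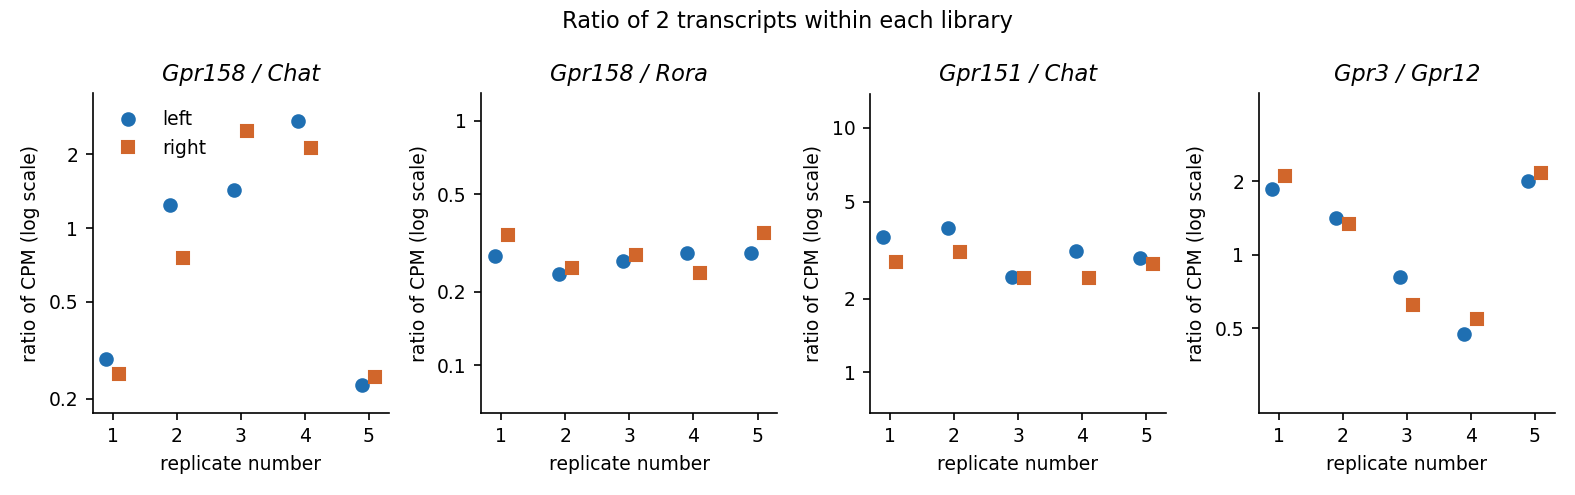
Ratio of the CPM of 2 genes within each library (log scale, y axis, the same fold span in each panel) by replicate number (x axis), left as circles and right as squares. Gpr158 over Chat spans 0.23 to 2.74, Gpr158 over Rora only 0.24 to 0.35, Gpr151 over Chat 2.43 to 3.90, and Gpr3 over Gpr12 falls from about 2 in replicates 1 and 5 to 0.48 in left replicate 4.

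The transcripts most like each receptor were sought among the 8960 tested genes whose mean reached 10 CPM, by Pearson's r of log2 CPM over 10 libraries. The libraries share a common axis (the first principal component held 79.4% of the variance), so high values are common: 16.0% of these genes had r above 0.9 with Gpr151, 4.86% with Gpr139, 17.6% with Gpr158, 1.76% with Gpr3, 14.3% with Gpr26 and 16.2% with Gpr85. Closest to Gpr151 were Mrpl36, a mitochondrial ribosomal protein (r = 0.995, n = 10), Acd, Fam19a1, Amigo2, an adhesion protein, and Tusc3 (0.992 to 0.993). Closest to Gpr139 were Chrnb4, the β4 nicotinic receptor subunit typical of the medial habenula (0.994), Sstr2, a somatostatin receptor (0.990), and Tmem117 (0.986).

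Gpr158 was closest to the transcript AK031097 (0.999), Ptprm, a receptor phosphatase (0.998), and Plch1, a phospholipase C (0.998). Among the closest to Gpr26 were St3gal1 (0.990) and Htr4, a serotonin receptor (0.990), and Gpr85 was closest to Gosr2, a Golgi SNARE (0.993), Bloc1s6 (0.992) and A330050F15Rik (0.992). Gpr3 had the weakest neighbours, Rpp21 (0.970), Mapk7 (0.968) and Meis3 (0.967). Without replicates 1 and 5, over 6 libraries, Chrnb4 was first for Gpr151 (r = 0.997) and second for Gpr139 (0.996). Gpr139 itself was among the 5 closest to Gpr151 (0.993). The others of these 5 were B3gat1, Cnnm2 and Mlx (0.995 to 0.996). Over 10 libraries B3gat1 and Cnnm2 had r of only 0.764 and 0.792 with Gpr151. Over the 6 libraries 520 of the 8960 genes had r above 0.9 with Gpr151 and 471 with Gpr139. Only 2 of the 20 closest genes over 10 libraries were then still among the closest of their receptor, one of them Chrnb4 for Gpr139.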

How the data were processed

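The authors deposited a table of raw counts for each library, without normalisation. The tools STAR 2.0.0e and HTSeq and the build mm10 are named, per the submitters' processing notes, and the sources used here state neither the annotation nor the strand setting. Of 32537 rows, 6 name no gene (the counter's own summary and an unknown entry) and entered neither library sizes nor tests. Reads outside genes were 13.6% to 18.9% of those in genes, outside genes or ambiguous. Groups came from the sample titles. The side was tested with edgeR 4.0.16 in R 4.3.3 (TMM, filterByExpr with a minimum count of 10, robust quasi-likelihood fit, two-sided, Benjamini-Hochberg over 16250 genes), with DESeq2 1.42.0 and limma 3.58.1 as alternatives. The script was tested on simulated data. CPM uses TMM-scaled library sizes, and log2 CPM a prior count of 2. Gene lengths and coordinates are of GENCODE M21 (GRCm38, the build of mm10), and promoters of RefSeq.

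The members and lists were chosen with earlier results of these data known. The genes named are the 6 receptors, their relatives, 7 partners (5 set by name and the 2 next most abundant), the 5 most abundant orphan receptors per kb and the closest genes of each receptor (5 for Gpr151, 3 for the others); of each marker list the 2 most abundant may be named, here for 3 lists. Other markers and orphan receptors were named after their values were seen. Some genes that the rule names are not reported here. Same-numbered libraries of the left and right correlated in their deviations from the side means (r = 0.948, 0.346, 0.940, 0.811 and 0.970 for numbers 1 to 5). All were above 0.1, so the number was taken to pair them. The most correlated library of the other side had another number for left replicates 2 and 4 (right replicate 3 for both). This also held for right replicate 1 (left replicate 5) and right replicate 4 (left replicate 3). Pairing by number is therefore an assumption. Python 3.11.15 with matplotlib 3.10.9 made the figures.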

Additional observations from a re-analysis of the deposited data

Results flagged for a closer look

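Of 56 groups of 5 libraries looked at for the named genes, 2 held a library far from the others; chance alone marks about 1 group in 20. Galr2 stood at 1.44 CPM in left replicate 5 and at 0.78 to 0.97 CPM in the other left libraries. Gpr6 stood at 0.62 CPM in left replicate 2 and at 0.20 to 0.30 CPM in the other left libraries. Both genes are scarce, with at most 78 and 40 reads in a library, and none of the 6 receptors was marked in this way.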

How the results depend on the processing

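No receptor passed the threshold in any alternative, and the smallest adjusted p of any was 0.135. With limma-voom and sample weights the log2 fold changes of Gpr151, Gpr139 and Gpr3 turned to -0.39, -0.20 and -0.12; the cause was not tested. With replicates 1 and 5 alone those of Gpr139, Gpr158, Gpr3 and Gpr85 turned to -0.073, -0.13, -0.15 and 0.028, and 1992 genes (12.8%) were called, among them 2 of 23 partners (Adrbk2 and Gpc4, 8.7%) and 13 of 40 tested other orphan receptors (32.5%). These rest on 2 libraries per side, which may come from related material and then understate the spread. The log2 fold change of Gpr26, near 0, turned to 0.0056 with upper-quartile factors, 0.0084 with library totals, 0.018 with the glial score as a covariate and 0.024 with the replicate block. It turned to 0.071 with lanes as a block in replicates 2 to 5, 0.030 with replicates 1 and 5 summed and 0.081 with replicates 2 to 4 alone. Same-numbered libraries share the recorded lane for replicates 2 to 5, not for replicate 1. For replicates 2 to 5, number and lane cannot be told apart. The replicate block changed no call. Leaving out 1 library gave -0.042 to 0.28 for Gpr151, -0.043 to 0.17 for Gpr139, -0.38 to 0.36 for Gpr158, -0.053 to 0.16 for Gpr3, -0.11 to 0.10 for Gpr26 and -0.12 to 0.063 for Gpr85. CPM without TMM factors moved no level by more than 5.29%. The order per length was the same with the longest transcript. Gpr151, Gpr139 and Gpr26 have only 1 annotated transcript, so this check could not change their levels. Of the 20 closest genes 2 were kept without replicates 1 and 5 and 19 with a minimum of 1 CPM. Each receptor had at least 721 reads per library. What sets the width of the intervals was not tested.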

Other observations

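Of 59 genes in the list of other orphan receptors 41 were tested, 0 were called between the sides (edgeR quasi-likelihood test), and 25 had a higher mean on the left. Of the 41, 16 had replicates 1 and 5 of both sides below the other libraries, 2, Gpr52 and Gpr180, had them above, and 23 overlapped, against 24.8% below and 23.6% above over all tested genes. All genes named here were chosen after their values were seen. Wide ranges were those of Gpr101, from 0.25 to 11.1 CPM, and Lgr5, a receptor for R-spondins, from 0.38 to 16.4 CPM. Gpr37, abundant in oligodendrocytes, ran from 0.72 to 18.8 CPM, Gpr37l1, abundant in astrocytes, from 0.73 to 13.2 CPM, and Gpr17, a receptor of oligodendrocyte precursors, from 1.118 to 14.0 CPM. Gpr45 and Gpr22 kept within 1.35-fold and 1.41-fold over the 10 libraries.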
